A study of Mus musculus with 6 samples.

Results

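The genes described here are 40 components of the mouse centromere, kinetochore and spindle checkpoint, taken by gene symbol from a count table of 22740 protein-coding genes. All 40 were found in the table under those symbols and all 40 had enough reads to be tested. They were followed in 6 RNA sequencing libraries of B16 cells, a pigmented mouse melanoma line (named B16-F10 in the design text and labelled BRAFV600E-negative). The libraries came from 3 samples treated with 1 uM CX5461 for 3 days and 3 samples treated with the vehicle DMSO over the same time, all in serum-containing medium. CX5461 is a small molecule known for inhibiting RNA polymerase I, the enzyme that transcribes the ribosomal RNA genes. The labels do not say whether replicates were separate cultures, so p-values measure the spread between these samples, which may be technical. Melanocyte markers fixed for this line were abundant, with a sum of 28240 to 30540 CPM (counts scaled by library size) in CX5461 libraries and 22080 to 22930 CPM in DMSO libraries. Of 12 markers of other cell types, Krt5, Krt1, Cd3e, Itgam and Cdh5 had no read in any library, and the fibroblast markers summed to 30.8 to 34.3 CPM with CX5461 and 12.5 to 16.5 CPM with DMSO, mainly Col1a2 with CX5461 and Col1a1 and Pdgfra with DMSO. The part of these markers in the results was not tested.

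The kinetochore is the protein assembly that joins a chromosome to spindle microtubules. Its base is chromatin that carries the histone variant CENP-A, on which the constitutive centromere-associated network (CCAN) sits through the cell cycle. At mitosis the CCAN recruits the outer kinetochore, whose Ndc80 complex grips the microtubule, and unattached kinetochores recruit the checkpoint proteins that hold back anaphase. Many of these genes are transcribed mainly in late S phase, G2 and mitosis, so that in a bulk culture a higher share of cells in those phases and more RNA per cell cannot be told apart.

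Library totals were 17877481 to 22908309 counts with CX5461 and 17573990 to 20198979 counts with DMSO. Scatter between libraries of a group, as chi-square per degree of freedom, was 5.42 to 9 with CX5461. It was 1.56 to 2.52 with DMSO, and the edgeR fit gave both groups of a gene the same dispersion. CX5461 replicate 2 stood apart from replicates 1 and 3 on the second principal component, at -15.5 against 8.49 and 6.91, a component that held 2.83% of the variance. Among the 40 genes, however, CX5461 replicate 3 was the library that most often gave the highest value of its group, in 31 genes. In the DMSO group, replicate 3 was highest for 26 genes. Replicate 1 most often gave the lowest value, in 25 genes with CX5461 and 24 genes with DMSO. The median gene stood 0.10 (log2) above the CX5461 group mean in CX5461 replicate 3 and 0.07 above the DMSO group mean in DMSO replicate 3. These steps were small beside the difference between the groups.

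Of the 40 transcripts, 38 were higher with CX5461, none was lower and 2 showed no change past the threshold (quasi-likelihood test of edgeR, Benjamini-Hochberg adjusted p below 0.05 over all tested genes). Among all 12198 tested genes, 73.7% were called, 37.2% as higher and 36.5% as lower. The median log2 change of the 40 was 0.97, a 1.96-fold rise, beside a median of -0.005 for all tested genes. A rise of at least 2-fold was reached by 18 of the 40, or 45.0%, beside 11.7% of all tested genes. For 37 of the 40 all CX5461 libraries lay above all DMSO libraries, which held for 38.2% of all tested genes. Together the 40 genes summed to 1964 to 2163 CPM in CX5461 libraries and 1306 to 1365 CPM in DMSO libraries. Leaving out CX5461 replicate 2, the library that stood apart, again gave 38 higher genes, and leaving out CX5461 replicate 3 gave 35.

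**Figure D1:**
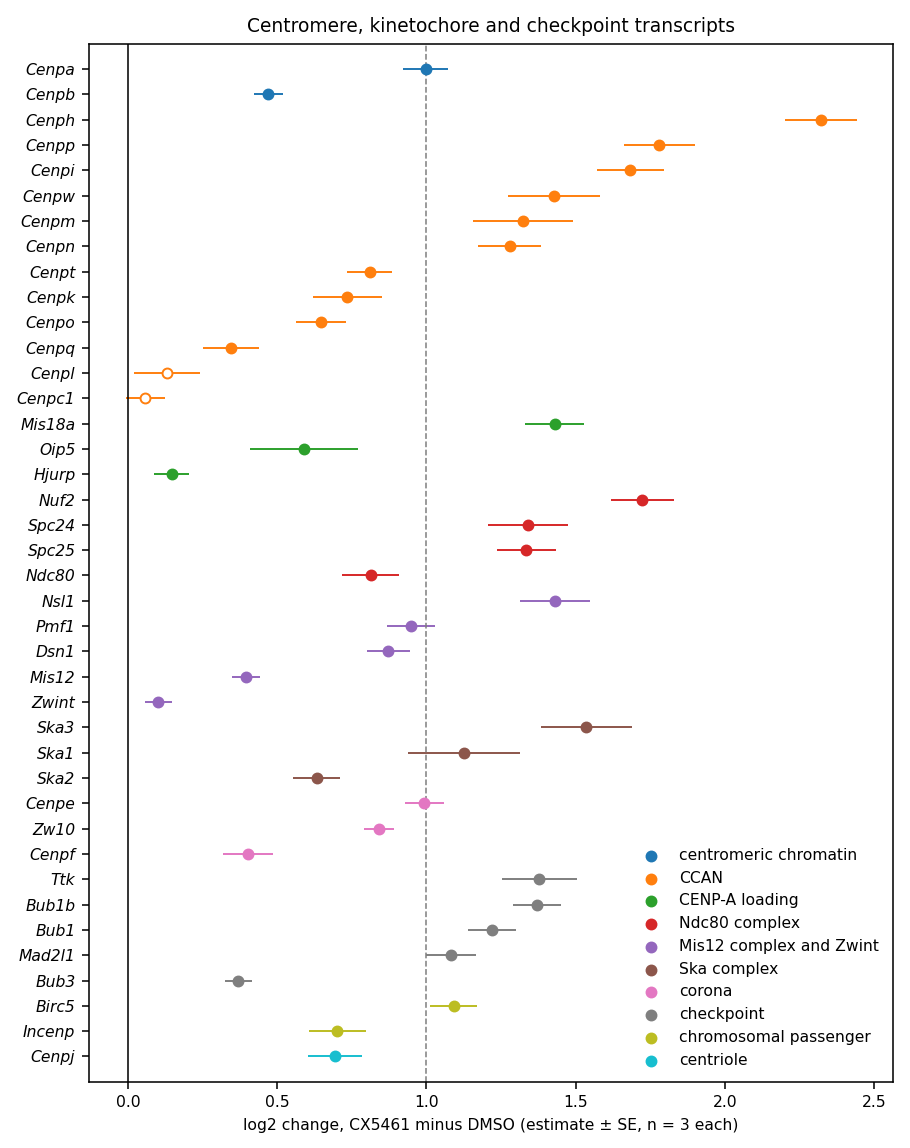
Log2 change (CX5461 minus DMSO, x axis) of each of the 40 genes (y axis), as the edgeR estimate with its standard error from 3 libraries per group; colours are roles, open circles are genes that did not pass and the dashed line marks 2-fold. No gene lies left of 0, Cenph lies farthest right at 2.32, and within most roles the genes are spread widely.

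The 3 layers of the assembly had medians in the order inner centromere, outer kinetochore, checkpoint from low to high, with widely overlapping members. The inner centromere (CENP-A, CENP-B and 12 CCAN genes) had a median log2 change of 0.90, with 12 of 14 higher and members from 0.06 to 2.32. The outer kinetochore (Ndc80, Mis12 and Ska complexes with Zwint) had a median of 1.04, with 12 of 12 higher and members from 0.10 to 1.72. The checkpoint group had a median of 1.22, with 5 of 5 higher and members from 0.37 to 1.38. The same order of medians was found in each CX5461 library set against the DMSO mean. These comparisons share their genes and the DMSO mean, so they are not independent. In CX5461 replicate 1 the medians were 0.79, 0.87 and 1.11 for the inner, outer and checkpoint genes. In replicate 2 they were 0.96, 1.10 and 1.23, and in replicate 3 they were 0.98, 1.15 and 1.32. The order depended on the grouping. The 12 CCAN genes alone had a median of 1.05, above that of the outer kinetochore, and Cenpa with Cenpb had 0.73. The 3 genes of the corona, the outermost layer, were kept apart and had a median of 0.84. These medians are a description without a test, and the range of changes within each layer exceeded the distance between the layers.

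**Figure D2:**
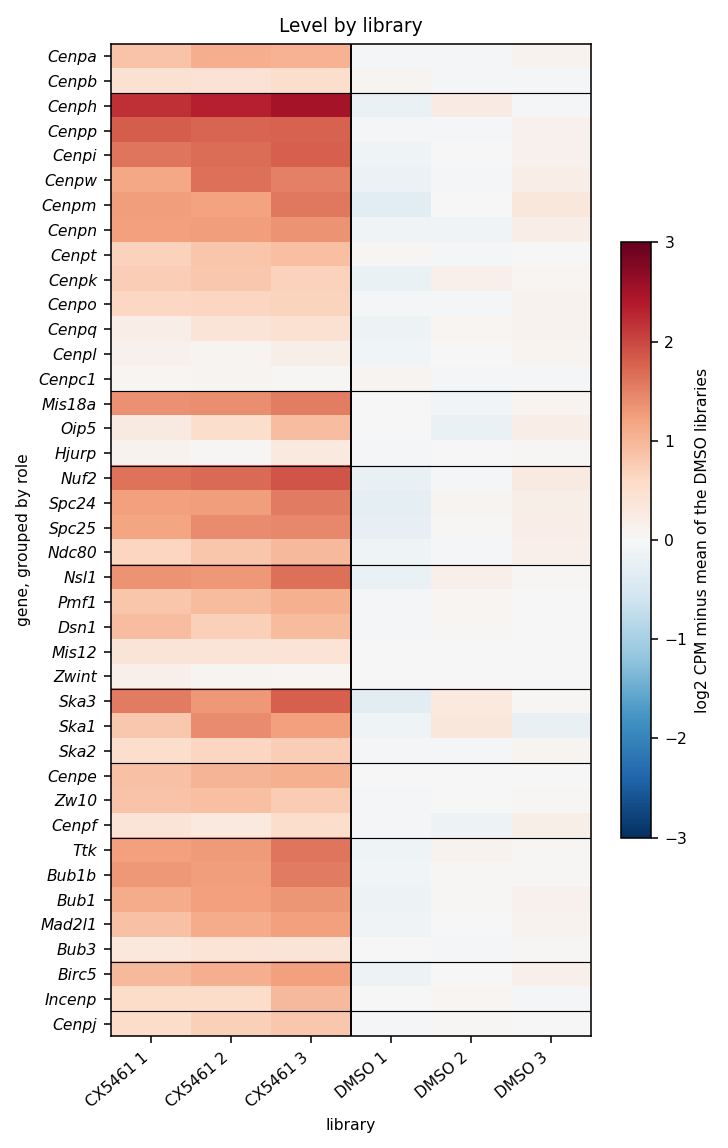
Level of each gene (rows, grouped by role) in each library (columns), as log2 CPM minus the mean of the 3 DMSO libraries; red is above and blue below that mean. The 3 CX5461 columns are red for nearly every gene, and the rows of Cenpl, Cenpc1, Hjurp and Zwint stay pale.

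The promoters of these genes were read for short sequence words known from cell-cycle genes. The cell-cycle homology region (CHR) is a short element, bound by the MuvB complexes in mouse and human cells, that silences late cell-cycle genes in resting cells and activates them later. The word TTTGAA or its variant TTCGAA stands for it here, and CCAAT is the word bound by the activator NF-Y. The windows were taken from RefSeq (GRCm38.p6) and ran from 250 bases before to 50 bases after the annotated start of the first listed transcript, for the 36 genes that matched by symbol, and both strands were searched. Cenpa and the checkpoint genes Bub1 and Bub1b are shown as genes with a clear rise and a CHR word, Cenpl as a gene with such a word that did not pass, and Cenph as the gene with the largest rise. Capitals mark the CHR words and CCAAT on either strand.
Cenpa, chr5:30666636-30666935, plus strand: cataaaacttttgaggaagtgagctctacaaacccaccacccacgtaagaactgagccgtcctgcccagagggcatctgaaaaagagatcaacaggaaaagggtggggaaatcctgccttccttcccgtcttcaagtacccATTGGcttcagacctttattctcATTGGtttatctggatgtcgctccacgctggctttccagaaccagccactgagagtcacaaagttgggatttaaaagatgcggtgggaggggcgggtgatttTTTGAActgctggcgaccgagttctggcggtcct
Bub1, chr2:127831810-127832109, minus strand: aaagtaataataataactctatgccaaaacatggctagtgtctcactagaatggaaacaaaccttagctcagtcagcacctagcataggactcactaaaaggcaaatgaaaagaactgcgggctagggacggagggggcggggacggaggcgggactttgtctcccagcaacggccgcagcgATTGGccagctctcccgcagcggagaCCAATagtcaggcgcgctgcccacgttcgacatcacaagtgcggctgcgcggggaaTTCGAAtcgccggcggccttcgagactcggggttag
Bub1b, chr2:118597961-118598260, plus strand: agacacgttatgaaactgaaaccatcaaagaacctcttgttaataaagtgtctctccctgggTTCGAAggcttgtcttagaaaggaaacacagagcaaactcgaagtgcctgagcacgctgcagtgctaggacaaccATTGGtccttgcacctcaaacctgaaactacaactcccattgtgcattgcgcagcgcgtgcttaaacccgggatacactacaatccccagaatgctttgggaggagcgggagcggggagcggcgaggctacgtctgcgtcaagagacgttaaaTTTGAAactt
Cenpl, chr1:161070517-161070816, plus strand: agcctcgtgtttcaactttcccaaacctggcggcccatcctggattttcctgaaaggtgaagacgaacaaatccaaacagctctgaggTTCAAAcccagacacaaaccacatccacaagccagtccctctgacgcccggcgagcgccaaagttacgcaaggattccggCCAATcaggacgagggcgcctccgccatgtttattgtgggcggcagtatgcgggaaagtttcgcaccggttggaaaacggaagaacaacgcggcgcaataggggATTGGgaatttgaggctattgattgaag
Cenph, chr13:100775850-100776149, minus strand: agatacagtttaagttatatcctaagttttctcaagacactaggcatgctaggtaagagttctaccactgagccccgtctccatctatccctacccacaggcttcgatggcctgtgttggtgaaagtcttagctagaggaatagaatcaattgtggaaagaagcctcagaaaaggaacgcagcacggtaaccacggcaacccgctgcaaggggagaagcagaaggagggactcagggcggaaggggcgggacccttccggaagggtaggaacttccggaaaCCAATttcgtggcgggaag

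A CHR word was present in 18 of the 36 promoters, or 50%, beside 19.4% of the 27025 promoters in the table and 13.2% of those of tested genes. In 13 of the 36, or 36.1%, it began within 50 bases of the start, beside 5.29% of all promoters, a window chosen after the positions had been seen. In Cenpa the word began at base 17 after the start and in Bub1 at base 15. Bub1b held a word on each side, at base 41 after the start and at base -188, counted from the start. Positions count from the RefSeq transcript start. In GENCODE the Cenpa gene begins upstream of it, at 30666777, so positions and the count within 50 bases depend on the start taken. CCAAT was present in 23 of 36 promoters (63.9%, beside 37.9% of all and 39.2% of those of tested genes), and Cenpa held a pair of CCAAT words, at bases -109 and -86. The E2F words (TTTCCCGC or else TTTGGCGC or else TTTCGCGC) were found in 4 of 36 (11.1%, beside 1.91% of all and 3.73% of those of tested genes). The median log2 change was 1.11 for the 18 genes with a CHR word and 0.77 for the 18 without, but with TTTGAA alone it was 0.95 for 15 genes with the word and 0.87 for 21 without. For the E2F words the order was the other way, at 0.67 for the 4 genes with one and 0.97 for the 32 without. Log2 changes ran from 0.13 (Cenpl) to 1.54 (Ska3) among the genes with a CHR word. The largest riser, Cenph, had none in its window, and Hjurp and Cenpl had one and changed little. A word is a description of letters, not a bound site.

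In the centromeric chromatin itself, Cenpa, which encodes the histone H3 variant that marks the centromere (chromosome 5, 30666777 to 30674830, GRCm38), rose with CX5461. It had 49.1, 58.5 and 56.3 CPM in the 3 CX5461 libraries against 26.4, 26.2 and 29.3 CPM in the DMSO libraries. The groups did not overlap, and the log2 change was 1.00 ± 0.07 (SE, n = 3 each, edgeR adjusted p = 9.165e-09). Cenpb, which encodes a protein that binds a repeat motif of centromeric DNA, had 233.2, 232.3 and 246.6 CPM with CX5461 and 182.0, 167.2 and 164.9 CPM with DMSO. Its rise was smaller, by 0.47 ± 0.05 on the log2 scale, and again the groups did not overlap.

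The genes that load new CENP-A changed by very different amounts. Mis18a, a subunit of the Mis18 complex that licenses the centromere for loading, had 17.2, 17.4 and 19.3 CPM with CX5461 and 6.61, 6.32 and 7.09 CPM with DMSO. That was a 2.70-fold rise (edgeR adjusted p = 3.578e-09). Its partner Oip5 was low throughout, at 4.41, 5.29 and 6.98 CPM with CX5461 and 3.66, 3.19 and 4.24 CPM with DMSO. Oip5 rose 1.50-fold (edgeR adjusted p = 0.008096), a call that rested on CX5461 replicate 3, without which the adjusted p was 0.06261. It shares 9.67% of its exonic length with Nusap1 on the other strand, whose log2 change was 0.89. Hjurp, the chaperone that carries CENP-A to the centromere, had 220.1, 208.1 and 249.4 CPM with CX5461 and 198.5, 203.5 and 210.0 CPM with DMSO. The groups of Hjurp overlapped and its change of 0.15 ± 0.06 (log2, SE; edgeR adjusted p = 0.03242) was lost without any 1 of 4 of the 6 libraries, with adjusted p up to 0.2511, and also with library totals only or a GC offset. Cenpa and Mis18a thus rose by more than Hjurp, and the direct test of that difference was not run.

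The 12 CCAN genes held both the largest change and the smallest of the 40. Cenph, a subunit of the CENP-H/I/K/M module that bridges CENP-A chromatin to the outer kinetochore (chromosome 13, 100759674 to 100775899), had 22.6, 24.7 and 27.8 CPM with CX5461 against 4.26, 5.84 and 4.80 CPM with DMSO. Every CX5461 library lay far above every DMSO library, and the rise was 5.00-fold (edgeR adjusted p = 1.233e-10). In the same module Cenpi rose 3.21-fold, Cenpm 2.50-fold and Cenpk 1.67-fold.

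Cenpp, of the CENP-O/P/Q module that is known with CENP-U for anchoring the mitotic kinase Plk1, had 11.6, 11.1 and 11.2 CPM with CX5461 and 3.17, 3.14 and 3.57 CPM with DMSO. This was a 3.44-fold rise, and 2.18-fold with an offset for genomic span, since Cenpp spans 189 kb. Exons of Cenpp share 12.3% of their length with Ippk on the other strand, a gene at 23.2 CPM with CX5461 and 25.0 CPM with DMSO. Its partners changed less, with Cenpo at 1.57-fold and Cenpq at 1.27-fold higher. Cenpo shares 19.0% of its exonic length with Adcy3 on the other strand, whose own log2 change was 0.34, so both values are uncertain where strand was not used in counting.

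The remaining CCAN modules were also uneven. Cenpn, which reads the CENP-A nucleosome, rose 2.43-fold, whereas its binding partner Cenpl did not pass. Cenpl had 7.70, 7.36 and 7.94 CPM with CX5461 and 6.61, 7.00 and 7.43 CPM with DMSO, with overlapping groups and a log2 change of 0.13 ± 0.11 (edgeR adjusted p = 0.2982). Among the histone-fold subunits, Cenpw rose 2.69-fold and Cenpt, a main recruiter of the Ndc80 complex, 1.75-fold.

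Cenpc1 encodes CENP-C, the scaffold that connects CENP-A nucleosomes to the Mis12 complex (chromosome 5, 86012024 to 86065583). It had 29.5, 30.2 and 28.9 CPM with CX5461 and 29.9, 27.4 and 27.8 CPM with DMSO. The groups overlapped, and the log2 change was 0.06 ± 0.07 (edgeR adjusted p = 0.4349). With an offset for GC content Cenpc1 and Cenpl both passed as higher, at 0.23 and 0.30 on the log2 scale (edgeR adjusted p = 0.00572 and 0.02237). Over all alternatives the adjusted p ran from 0.005475 to 0.8518 for Cenpc1 and from 0.02237 to 0.6514 for Cenpl.

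In the outer kinetochore, all 4 genes of the Ndc80 complex, the rod that binds microtubules, were higher. Nuf2 (chromosome 1, 169497934 to 169531464) had 36.5, 38.2 and 43.4 CPM with CX5461 and 10.2, 11.3 and 14.4 CPM with DMSO. It had the largest rise in the outer kinetochore, at 3.30-fold (edgeR adjusted p = 9.35e-10). Spc24, of the inner end of the rod, had 12.5, 12.6 and 15.7 CPM with CX5461 and 4.37, 5.65 and 6.03 CPM with DMSO, a 2.53-fold rise. Spc25, which pairs with Spc24, rose 2.52-fold. Ndc80, which pairs with Nuf2, had 26.4, 30.1 and 33.1 CPM with CX5461 and 15.5, 16.5 and 18.9 CPM with DMSO, a rise of 1.76-fold.

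The Mis12 complex links the Ndc80 complex to the CCAN, and its 4 genes rose from 1.32-fold to 2.70-fold. Nsl1 had 19.9, 19.2 and 24.5 CPM with CX5461 and 6.83, 8.69 and 7.99 CPM with DMSO. Pmf1 had 28.2, 31.0 and 33.4 CPM with CX5461 and 15.4, 16.6 and 15.9 CPM with DMSO, a 1.93-fold rise. Dsn1 was 1.83-fold and Mis12 1.32-fold higher, Mis12 with 7.69% of its exonic length shared with Derl2 on the other strand. Zwint, which binds the KNL1 scaffold and helps to bring in the RZZ complex, was among the most abundant of the 40 and moved little. It had 156.1, 150.0 and 147.9 CPM with CX5461 and 141.9, 139.0 and 142.1 CPM with DMSO. The groups of Zwint did not overlap, but the log2 change was only 0.10 ± 0.04 (edgeR adjusted p = 0.04735). This call was lost under 10 of 18 alternatives, among them the removal of any DMSO library or of CX5461 replicate 1 or 3, with adjusted p from 0.0005305 to 0.5588 over all of them.

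The Ska complex tracks the ends of shortening microtubules, and its 3 genes were higher. Ska3 had 15.6, 13.0 and 18.4 CPM with CX5461 and 4.21, 6.52 and 5.42 CPM with DMSO, a 2.90-fold rise. Ska1 was the least abundant of the 40 per length, with 4.91, 7.42 and 6.57 CPM with CX5461 and 2.57, 3.52 and 2.40 CPM with DMSO, a 2.18-fold rise. Ska2 had 27.5, 29.9 and 31.7 CPM with CX5461 and 18.6, 18.5 and 20.4 CPM with DMSO, a 1.55-fold rise, and an antisense gene covers 10.1% of its exonic length. In each of the 3 genes the groups did not overlap.

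The 3 genes of the corona, the outermost layer of the unattached kinetochore, among the 40 had rises just below 2-fold or smaller. Cenpe, a kinesin motor that carries chromosomes to the spindle equator, had 48.4, 53.6 and 55.5 CPM with CX5461 and 26.2, 26.1 and 26.7 CPM with DMSO, at 1.99-fold. Zw10, of the RZZ complex that recruits dynein and Mad1 and that also acts in membrane traffic in interphase, had 139.3, 143.9 and 129.8 CPM with CX5461 and 74.6, 77.0 and 78.8 CPM with DMSO, at 1.79-fold. Cenpf, a large coiled-coil protein, had 41.9, 39.2 and 46.1 CPM with CX5461 and 31.2, 29.0 and 36.4 CPM with DMSO, at 1.32-fold. Cenpf had the closest groups of these 3, with its highest DMSO library near its lowest CX5461 library. Corona genes outside the 40, from the further list below, ranged more widely. Kntc1 rose 4.92-fold, Zwilch 3.03-fold, Spdl1 1.87-fold and Nde1 1.52-fold, and Ndel1 fell.

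The spindle checkpoint genes rose together with a single low value. Ttk, the kinase Mps1 that starts checkpoint signalling, had 13.2, 13.7 and 17.2 CPM with CX5461 and 5.14, 6.03 and 5.75 CPM with DMSO, a 2.60-fold rise. Bub1b, which encodes the anaphase inhibitor BubR1, had 63.9, 61.7 and 76.6 CPM with CX5461 and 24.5, 26.8 and 26.9 CPM with DMSO, a 2.58-fold rise (edgeR adjusted p = 5.276e-10). Bub1, the kinase that marks centromeric histone H2A, rose 2.33-fold and Mad2l1, which encodes the core inhibitor Mad2, 2.12-fold. Bub3, the shared binding partner of Bub1 and BubR1, had 219.2, 235.1 and 233.5 CPM with CX5461 and 175.8, 173.1 and 182.9 CPM with DMSO. Bub3 rose 1.29-fold (edgeR adjusted p = 2.613e-06), the least of the checkpoint group, without overlap between the groups.

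The chromosomal passenger complex corrects wrong attachments through its kinase Aurora B. Birc5, which encodes its subunit survivin, had 57.0, 61.1 and 67.5 CPM with CX5461 and 26.1, 28.8 and 32.2 CPM with DMSO, a 2.13-fold rise. Incenp, the scaffold that activates Aurora B, had 53.8, 53.6 and 72.0 CPM with CX5461 and 36.6, 38.3 and 35.3 CPM with DMSO, a 1.63-fold rise in which replicate 3 stood highest. Cenpj carries a centromere name, but its protein is known for building centrioles. Cenpj had 17.7, 19.9 and 21.1 CPM with CX5461 and 11.7, 12.4 and 12.1 CPM with DMSO, a 1.62-fold rise.

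Many partners of a complex work in fixed proportion as proteins, so the ratio of their transcripts was followed within each library. Ratios used CPM per kb of the principal transcript. Fixed proportion does not hold for the pairs with Bub3, which Bub1 and BubR1 share. In 18 of 19 pairs of partners the member with the larger rise was put on top, so the direction of the shift is set by that choice. The exception was Spc25 over Spc24, whose rises were nearly equal. In 17 of the 19 pairs the ratios of the CX5461 libraries did not overlap those of the DMSO libraries. The same held for 75.7% of all pairs of tested genes with reads in every library, and pairs that share a gene are not independent. With 3 libraries a side the exact two-sided permutation test has 20 arrangements and cannot give less than p = 0.1, the value of those 17 pairs (0.112 after Benjamini-Hochberg adjustment over the 19).

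Cenph over Cenpk shifted most, at 2.12, 2.21 and 2.70 in CX5461 libraries against 0.774, 0.829 and 0.721 in DMSO libraries. Whether a ratio stands above or below 1 depends on the transcript lengths taken, whereas its shift between the groups does not. The ratio of Cenpn to Cenpl was 2.36, 2.52 and 2.49 with CX5461 and 1.09, 1.03 and 1.20 with DMSO. Nuf2 over Ndc80 was 1.26, 1.16 and 1.20 with CX5461 and 0.599, 0.626 and 0.696 with DMSO. Spc25 over Spc24, the other arm of the same complex, stayed at 3.06, 3.53 and 2.87 with CX5461 and 3.25, 3.02 and 3.20 with DMSO, with overlapping groups (exact permutation p = 1). Ska1 over Ska2 overlapped as well (exact permutation p = 0.2).

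**Figure D3:**
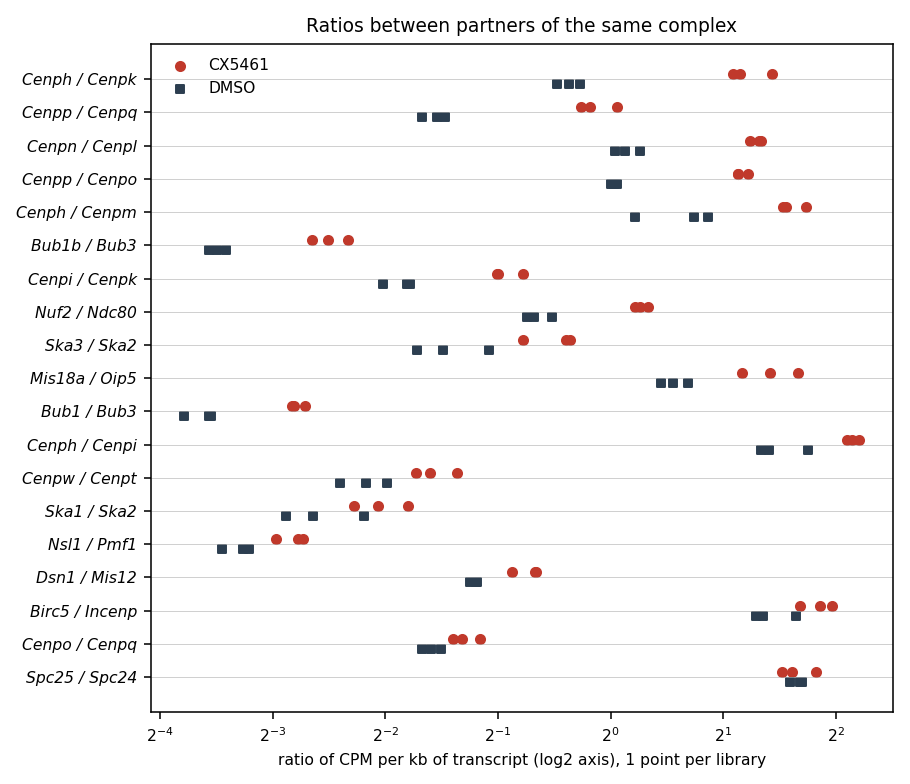
Ratio of CPM per kb of transcript between partners of the same complex (rows) on a log2 axis, with 1 point per library, red circles for CX5461 and dark squares for DMSO. The circles lie right of the squares without overlap for 17 of 19 pairs, and for Spc25 over Spc24 and Ska1 over Ska2 they mix.

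Level and change were related weakly. Per kb of transcript and as a mean over the 6 libraries, the 40 genes ran from 1.74 CPM per kb (Ska1) to 91.6 CPM per kb (Bub3). The 10 genes highest on this scale had a median log2 change of 0.66, with 2 of 10 at 2-fold or more, and the other 30 a median of 1.10, with 16 of 30. Which genes stand among the highest depends on the transcript lengths taken, such as 7557 bases for Mad2l1. The rank correlation between level and log2 change was -0.279 across the 40 genes and -0.119 across 11946 tested genes with a known transcript length. These are correlations across genes that share the same libraries, and genes are not independent replicates. With genomic span the rank correlation was 0.0932 for the 40 genes and 0.22 for all tested genes, and the 40 had a median GC content of 45.0% against 49.8%.

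**Figure D4:**
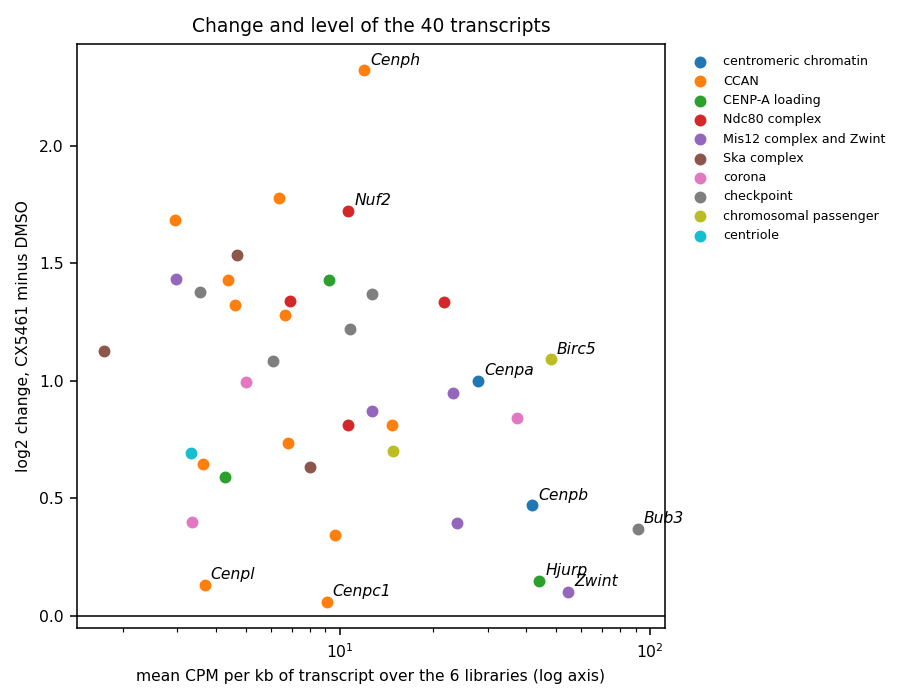
Log2 change (CX5461 minus DMSO, y axis) against the mean level over the 6 libraries in CPM per kb of transcript (log x axis) for the 40 genes, coloured by role. At the right, Bub3, Zwint, Hjurp and Cenpb lie below 0.5 on the y axis and, among them, Birc5 lies at 1.09 and Zw10 at 0.84, while Cenpl and Cenpc1 lie low at lower levels.

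A further list of 30 kinetochore, passenger and checkpoint genes outside the 40 was chosen with earlier results of these data known. It gave 25 higher (83.3%), 4 lower and 1 not passed, with a median log2 change of 0.74. Among all tested genes 37.2% were higher and 36.5% lower. Kntc1, a partner of Zw10 in the RZZ complex, had 55.9, 50.7 and 67.1 CPM with CX5461 and 9.94, 11.4 and 14.0 CPM with DMSO, a 4.92-fold rise. Mad1l1, which anchors Mad2 at the kinetochore, had 32.9, 36.3 and 35.8 CPM with CX5461 and 7.87, 7.92 and 7.93 CPM with DMSO. Its 4.42-fold rise became 2.11-fold with the offset for genomic span, as Mad1l1 spans 313 kb. With that offset Clasp1, a microtubule stabiliser that spans 224 kb, no longer passed, at 1.01-fold (edgeR adjusted p = 0.9045) beside 1.75-fold without it, and its relative Clasp2 was 1.39-fold higher, beside 2.13-fold. Mlf1ip, the table's symbol for CENP-U, had 7.93, 8.46 and 8.75 CPM with CX5461 and 1.75, 3.14 and 2.85 CPM with DMSO. It rose 3.22-fold, and it shares 26.7% of its exonic length with Primpol on the other strand.

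The genes of that list that fell were Cenpv, Ndel1, Itgb3bp and Champ1. Cenpv had 7.39, 7.54 and 7.48 CPM with CX5461 and 17.1, 19.2 and 15.5 CPM with DMSO, a log2 change of -1.21 ± 0.10 (edgeR adjusted p = 4.209e-08). Ndel1, a dynein regulator with many roles outside mitosis, had 118.2, 105.5 and 109.5 CPM with CX5461 and 169.7, 172.9 and 169.3 CPM with DMSO, a log2 change of -0.62 ± 0.05. The groups did not overlap in either gene. Itgb3bp, which encodes the CCAN subunit CENP-R, had 17.1, 19.2 and 16.9 CPM with CX5461 and 23.2, 26.1 and 26.2 CPM with DMSO, a log2 change of -0.51 ± 0.08. Itgb3bp spans 164 kb and shares 8.59% of its exonic length with Pgm1 on the other strand, and its ratio of CX5461 to DMSO was 0.703 without and 0.481 with the offset for genomic span. Champ1, which helps chromosome alignment, had 48.8, 58.0 and 56.6 CPM with CX5461 and 72.2, 74.4 and 75.3 CPM with DMSO, a log2 change of -0.44 ± 0.06. Bod1 did not pass (edgeR adjusted p = 0.06172), but passed as higher with the offset for genomic span, at 1.14-fold (edgeR adjusted p = 0.002979).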

How the data were processed

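RNA sequencing counts of 6 libraries were used. The deposited table holds whole-number counts of reads per protein-coding gene, not normalized by the authors, and columns were mapped by the sample descriptions. The submitters' processing notes list GRCm38 and mm10 as builds, and the aligner, counter, annotation and use of strand were not given in the sources used here. Counts were tested with edgeR 4.0.16 in R 4.3.3: filterByExpr with a minimum count of 10 (12198 genes), TMM factors, and the quasi-likelihood F test of CX5461 against DMSO, two-sided, with Benjamini-Hochberg adjustment over all tested genes and a threshold of 0.05. CPM are per library total times TMM factor, standard errors were derived from the log2 change and its F value, and TMM shows only changes relative to other genes. Gene positions, spans and lengths of APPRIS principal transcripts come from GENCODE M21 (GRCm38), which held 21842 of 22740 identifiers and all 40 members. The fit was tested on simulated data, in which, unlike in these data, few genes changed and all genes shared the same dispersion.

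All 40 members may be named. Values of every library are given for the members with the 2 largest changes and the smallest change of each role, for those that fell or did not pass and for Cenpa, and from the further list for the largest rises and falls. Members, lists, pairs and the offset for genomic span were chosen with earlier results of these data known. Alternatives were other scaling factors (RLE, upper quartile, library totals), no filter, 1 CPM in 3 libraries, DESeq2 1.42.0, limma-voom 3.58.1, a replicate block, GC and span offsets, a threshold of 0.01 and each library left out.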

Additional observations from a re-analysis of the deposited data

How the results depend on the processing

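The count of higher members ran from 35 to 39 over 18 alternatives, 35 to 38 with a library left out, and that of lower members was 0 in all of them. Of the 40 members, 35 kept their direction and their side of the threshold throughout, the exceptions being Cenpc1, Cenpl, Hjurp, Oip5 and Zwint. With library totals only, Cenpc1 took the opposite sign, at -0.0147 (adjusted p = 0.8518, edgeR). In that setting the median of all genes was -0.0785. The role medians stayed between 0.831 and 0.979 for the inner centromere, 0.964 and 1.15 for the outer kinetochore and 1.14 and 1.29 for the checkpoint genes. Over all tested genes, deviations from the group means were hardly correlated between same-numbered libraries, at 0.0364, 0.00368 and -0.00843. These correlations cannot settle whether the samples were paired by replicate number. Among the 40 genes replicate 1 was most often lowest and replicate 3 most often highest in both groups. Pairing within the 40 genes alone was not tested. With the replicate block 37 members were higher, Zwint being lost (adjusted p = 0.0872, edgeR), and with the GC offset and the replicate block together 39 were higher. Over all genes the counts ran from 3989 to 4818 higher and from 3847 to 5109 lower. Depth limits the low genes most: Oip5 and Ska1 had only a few CPM, where 3 counts equal 0.135 to 0.173 CPM, and these floors cover counting error only. Cenpm, Cenpp and Cenpw were also low in DMSO libraries, with means of 3.17, 3.29 and 3.61 CPM beside 3.70 CPM for Oip5. Their rises rest on these low DMSO levels.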
